A study of Mus musculus with 6 samples.

Results

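The tendon lineage genes Scx, Tnmd, Mkx, Thbs4, Thbs2, Tnc and Htra3 were examined in the shaft of the humerus, taken from E16.5 mouse embryos. They were taken by symbol from the deposited table, and all 7 were found among its 23930 amplicons. The study measured RNA in 3 libraries labelled Stat3 KO, genotype Prrx1Cre; Stat3C/C, and in 3 control libraries, genotype Stat3C/+. The controls are also called wild type, but their genotype carries 1 Stat3C allele, as written in the labels, and names no Cre. Prrx1Cre is a driver active in limb bud mesenchyme, from which limb tendon, cartilage, bone and connective tissue cells arise, whereas limb muscle fibres come from the somites. The aim given for the series was to find genes that differ between these genotypes in long bone. Nothing in the labels tells whether the libraries of a group stand for different embryos. The p-values therefore describe only how these libraries scatter, which may be partly technical.

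Tendon joins muscle to bone and forms from limb mesenchymal progenitors that switch on the transcription factor gene Scx. Scx and the homeobox factor Mkx act high in the tendon programme, Tnmd is the classic marker of differentiating tendon cells, and the thrombospondins and tenascin-C are matrix glycoproteins that lie between the cells and the collagen fibrils. TGF-beta and FGF signals are known to induce and maintain Scx in the limb, and mechanical load from muscle acts through Egr1.

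The library method amplifies 1 short target per gene, so a value, in RPM (reads of that amplicon as a fixed-scale rate over all reads of the library), is a relative abundance of that target. Levels of different genes are not compared here, since amplicons differ in efficiency. Library depth was 9126493 to 11809106 reads in Stat3 KO and 11640697 to 13376550 reads in controls. The Stat3 amplicon itself had 208, 201 and 170.1 RPM in Stat3 KO libraries and 211, 201 and 211 RPM in control libraries (limma, adjusted p = 0.380). Whether this amplicon lies within the deleted exons is unknown here, so it checks nothing about the labels. Markers were also looked up, although their presence at this depth cannot check the tissue label. Scx, Tnmd and Mkx were read in every library, and so were 10 of 10 osteoblast markers and 16 of 16 skeletal muscle markers in the table, so reads of bone, muscle and tendon markers were all present.

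The promoters are shown first because the groups differ in a transcription factor and Tnmd stands for the members that rose, Htra3 for those that did not pass the test. RefSeq sequences on GRCm38.p6 matched 5 of the 7 members by symbol (not Scx or Mkx). The 250 bases before the RefSeq start were searched on both strands for TTCNNNGAA, the palindrome that STAT dimers are known to bind, and for CANNTG, the E-box that basic helix-loop-helix factors such as Scx are known to bind. The Tnmd sequence lies on the plus strand at chrX:133850758-133851007 and the Htra3 sequence on the minus strand at chr5:35679781-35680030, both written 5′ to 3′ with E-boxes in capitals.
Tnmd: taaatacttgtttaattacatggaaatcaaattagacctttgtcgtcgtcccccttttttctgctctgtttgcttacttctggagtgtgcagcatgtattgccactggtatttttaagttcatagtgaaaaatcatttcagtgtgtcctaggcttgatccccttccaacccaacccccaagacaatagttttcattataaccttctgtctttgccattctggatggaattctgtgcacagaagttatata
Htra3: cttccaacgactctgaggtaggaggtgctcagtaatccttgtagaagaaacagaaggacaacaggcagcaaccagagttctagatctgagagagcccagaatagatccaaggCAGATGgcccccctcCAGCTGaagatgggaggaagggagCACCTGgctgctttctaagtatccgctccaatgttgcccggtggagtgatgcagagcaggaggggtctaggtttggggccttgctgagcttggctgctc
None of the 5 members held TTCNNNGAA in this window, against 7.02% of the 32851 promoters in the table. An E-box was present in 4 of the 5 members (Thbs4, Thbs2, Tnc and Htra3) and in 66.2% of all promoters, and the Tnmd window held 0. Htra3 held 3 E-boxes, among them 1 of the form CATCTG (read here as its reverse complement), a form found in 14.4% of all promoters. A match is a description of the letters and not a bound site, and no match says only that these letters are not in these 250 bases.

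Of the 7 genes, Scx and Tnmd rose in Stat3 KO bone and the other 5 did not pass the test. The mean of Scx was 37.3% higher and that of Tnmd 50.3% higher in Stat3 KO than in control libraries. The groups were compared on log2(RPM + 1) with limma, and Benjamini-Hochberg adjustment ran over the 12846 amplicons that averaged 1 RPM or more. A gene was called at an adjusted p under 0.05. A fold change on this scale understates the change of low genes. Over all amplicons tested, 5.71% were called higher and 11.0% lower, and 2 and 0 of the 7 genes were. Of all calls, 34.2% were higher, against 52.9% with TMM scaling, 55.1% with median-of-ratios scaling, 52.7% after quantile normalization, and on recovered reads 53.3% by edgeR and 56.3% by DESeq2. The shares of amplicons called higher and lower were 8.13% and 7.22% with TMM, 8.4% and 6.86% with median-of-ratios, and 7.62% and 6.83% after quantile normalization. On recovered reads they were 8.19% and 7.18% by edgeR, while DESeq2 gave 8.08% and 6.28%. Each of these called 2 of the 7 genes higher. No member was lower at an unadjusted p under 0.05, and edgeR and DESeq2 called 0 lower. The median log2 fold change of the 7 genes was 0.10, and that of all amplicons tested was -0.06. In bulk tissue, a change in the number of cells of a type and a change in RNA per cell cannot be told apart.

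**Figure D1:**
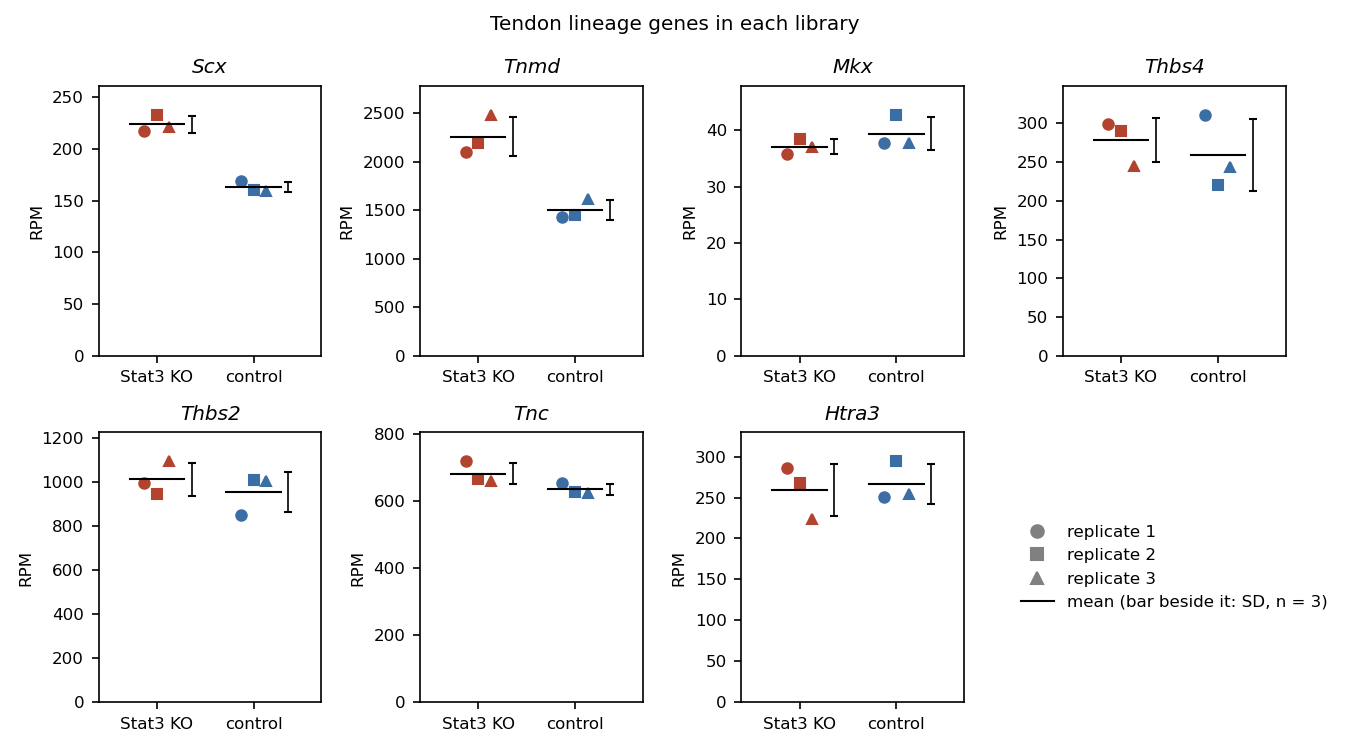
Each panel plots 1 gene, with RPM on the vertical axis from 0 and the Stat3 KO and control groups side by side. Points are libraries, the line is the group mean and the bar beside it the SD (n = 3). The Stat3 KO and control points separate clearly for Scx and Tnmd, narrowly for Tnc, and overlap for Mkx, Thbs4, Thbs2 and Htra3.

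Scx (scleraxis, chromosome 15 from 76457452 to 76459458, plus strand, gene positions here from GENCODE M21 on GRCm38) is the basic helix-loop-helix factor that marks tendon progenitors. Its amplicon AMPLScx_1_1.2817 had 217, 233 and 221 RPM in the Stat3 KO libraries and 168, 160.4 and 159 RPM in the control libraries. The lowest Stat3 KO library lay above the highest control library, and the spread within each group was small, with a coefficient of variation of 3.66% in Stat3 KO and 3.04% in controls. The means were 223 ± 8.19 RPM in Stat3 KO and 163 ± 4.95 RPM in controls (SD, n = 3 each). The log2 fold change was 0.45 ± 0.08 (SE, 95% interval 0.30 to 0.61, limma adjusted p = 2.71e-04). The exact two-sided permutation test gave p = 0.1, the smallest that 3 against 3 can give. These values rest on 1942 to 2561 reads per library, where counting alone gives an error of at most 2.27%.

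The whole Scx gene lies inside Bop1, a ribosome biogenesis gene on the opposite strand, although no annotated exons of the genes overlap. Whether the counting used strand is unknown here. Bop1 had 61.0, 58.7 and 55.5 RPM in Stat3 KO libraries and 66.1, 69.8 and 61.4 RPM in control libraries, with a log2 fold change of -0.17 (limma adjusted p = 0.221). Its value thus lay on the other side of 0 from that of Scx.

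Tnmd (tenomodulin, chromosome X from 133850980 to 133865577, plus strand) encodes a membrane glycoprotein of mature tendon cells and is a known target of Scx. Its amplicon AMPLTnmd_5_1.9903 had 2096, 2195 and 2481 RPM in the Stat3 KO libraries and 1431, 1456 and 1618 RPM in the control libraries. Again no Stat3 KO library reached down to a control library. The means were 2257 ± 200.1 RPM in Stat3 KO and 1502 ± 101.2 RPM in controls (SD, n = 3 each). Its log2 fold change was 0.59 ± 0.08 (SE, 95% interval 0.43 to 0.74, limma adjusted p = 1.71e-05), and the exact two-sided permutation test gave p = 0.1. At 16662 to 24748 reads per library the counting error was at most 0.775%, well under the spread between libraries of 8.86% in Stat3 KO and 6.74% in controls.

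Of these genes, Tnmd moved most. In all, 183 of the 12846 amplicons tested had a greater log2 fold change than Tnmd, and 388 a greater one than Scx. Both calls held under all 17 alternative settings tried. The log2 fold change ranged from 0.43 to 0.52 for Scx and from 0.52 to 0.65 for Tnmd, with the weakest adjusted p at 0.0235 and 0.0182 in that order of genes.

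Mkx (mohawk, chromosome 18 from 6934518 to 7004780, minus strand) is a homeobox factor needed for tendon collagen growth. Its amplicon AMPLMkx_3_1.13688 had 35.7, 38.5 and 37.0 RPM in the Stat3 KO libraries and 37.8, 42.7 and 37.7 RPM in the control libraries. The groups overlapped, and control replicate 2 was the highest of the 6. This gave a log2 fold change of -0.08 ± 0.10 (SE, 95% interval -0.29 to 0.13, limma adjusted p = 0.615). It was the member with the fewest reads, 351 to 571 per library, which alone gives an error of up to 5.34%. A rise as large as that of Scx lies outside the interval for Mkx.

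Among the matrix genes, Thbs4 (thrombospondin 4, chromosome 13 from 92751590 to 92794818), which organises the matrix at the junction of muscle and tendon, spread most between control libraries. It had 299, 290.0 and 245 RPM in the Stat3 KO libraries and 311, 221 and 244 RPM in the control libraries. The highest library of all was control replicate 1, the groups overlapped, and the coefficient of variation was 10.3% in Stat3 KO and 18.0% in controls. Thbs4 had a log2 fold change of 0.11 ± 0.10 (SE, 95% interval -0.09 to 0.32, limma adjusted p = 0.471). Without control replicate 1 it was 0.25 (adjusted p = 0.0864), and without control replicate 2 it was 0.01 (adjusted p = 0.968), so its value depends on both libraries.

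Thbs2 (thrombospondin 2, chromosome 17 from 14665500 to 14694235), a regulator of collagen fibril assembly in connective tissue, had 994, 946 and 1092 RPM in the Stat3 KO libraries and 851, 1007 and 1002 RPM in the control libraries. Control replicate 1 was the lowest of the 6 and the other libraries were intermixed. For Thbs2 the log2 fold change was 0.09 ± 0.08 (SE, 95% interval -0.08 to 0.25, limma adjusted p = 0.489), and it was 0.01 without control replicate 1.

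Tnc (tenascin C, chromosome 4 from 63959785 to 64047015), an anti-adhesive glycoprotein of tendon, ligament and perichondrium, had 718, 666 and 660.0 RPM in the Stat3 KO libraries and 654, 627 and 624 RPM in the control libraries. All 3 Stat3 KO libraries lay above all 3 controls. The log2 fold change of 0.10 ± 0.07 did not pass the test (SE, 95% interval -0.04 to 0.25, limma adjusted p = 0.342, exact permutation p = 0.1). Of all amplicons tested, 11.9% had all Stat3 KO libraries above all controls, 21.9% had them below, and 33.8% had either. Among the 7 genes, 3 had them above (Scx, Tnmd and Tnc) and 0 below. The antisense transcript 8030451A03Rik, which overlaps Tnc exons, was at 0.085 to 0.11 RPM in Stat3 KO and 0.075 to 0.411 RPM in control libraries.

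Htra3 (chromosome 5 from 35652023 to 35679782) encodes a secreted serine protease known to cleave proteoglycans and to inhibit TGF-beta family signals in culture. It had 286, 268 and 223 RPM in the Stat3 KO libraries and 251, 294 and 254 RPM in the control libraries. Stat3 KO replicate 3 was the lowest and control replicate 2 the highest, and the groups overlapped. The log2 fold change was -0.04 ± 0.09 (SE, 95% interval -0.23 to 0.14, limma adjusted p = 0.783), and its sign turned under other scalings, to 0.012 with TMM factors and 0.018 with median-of-ratios factors.

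**Figure D2:**
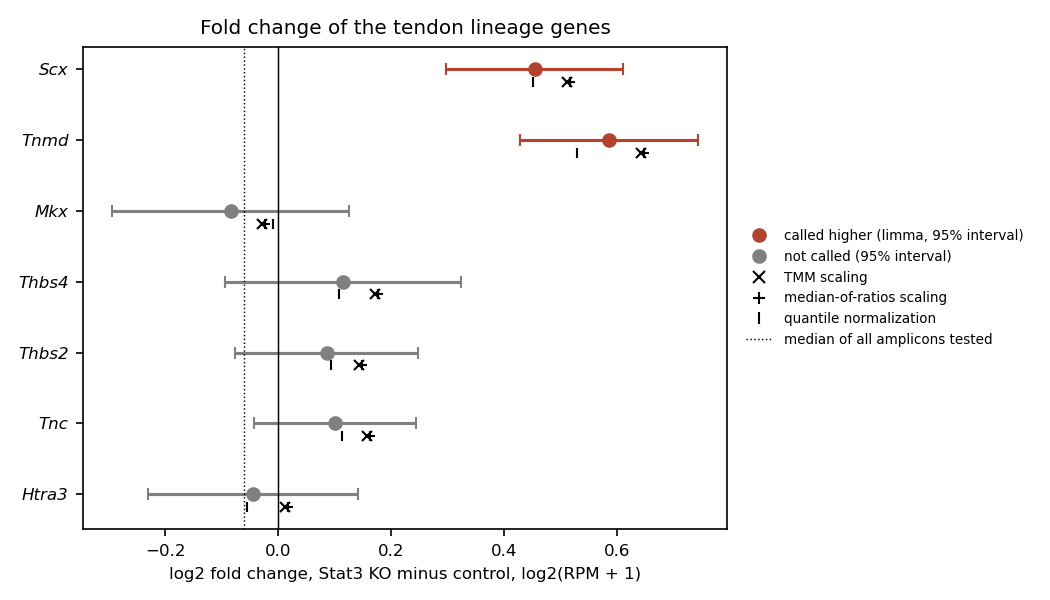
The horizontal axis is the log2 fold change (Stat3 KO minus control, on log2(RPM + 1)) and each row is 1 gene. Large points with bars are the limma estimates with 95% intervals, and small marks under them are the values with TMM, median-of-ratios and quantile scaling. The dotted line is the median of all amplicons at -0.06. The intervals of Scx (0.30 to 0.61) and Tnmd (0.43 to 0.74) lie wholly above 0 and those of the other 5 genes include 0.

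Ratios within a library do not depend on how libraries are scaled to each other. Relative to Col1a1, the main collagen gene of bone and tendon, Scx had a log2 ratio of -6.95 ± 0.19 in Stat3 KO and -7.46 ± 0.15 in controls, and Tnmd had -3.62 ± 0.14 in Stat3 KO and -4.26 ± 0.05 in controls (SD, n = 3 each). Both differences, 0.51 for Scx and 0.64 for Tnmd, came with non-overlapping groups (exact two-sided permutation p = 0.1, the smallest possible). Relative to the summed skeletal muscle markers the difference was 0.59 for Scx and 0.72 for Tnmd, again without overlap. Tnc relative to the muscle sum also differed without overlap, by 0.23 (exact two-sided permutation p = 0.1). The muscle sum was itself lower in Stat3 KO, at 25311 to 27076 RPM, against 27713 to 31072 RPM in controls. That raises the ratio of any gene that did not fall with it, so the muscle ratios are no separate result about Scx, Tnmd or Tnc. The other 5 genes overlapped between groups relative to Col1a1, and Mkx, Thbs4, Thbs2 and Htra3 did so relative to the muscle sum.

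Ratios to Scx in the same library carry the rise of Scx itself, which lowers the ratio of any gene that did not rise with it. Lower ratios are thus no separate result about the genes that were not called. The Mkx to Scx log2 ratio was -2.59 ± 0.01 in Stat3 KO and -2.05 ± 0.13 in controls (SD, n = 3 each), a difference of -0.54 with all 3 Stat3 KO libraries below all controls. Htra3, Thbs2 and Tnc were also lower relative to Scx without overlap, by differences of -0.50, -0.37 and -0.36, while Thbs4 overlapped at -0.34. Each non-overlapping ratio had an exact two-sided permutation p = 0.1, which is the smallest possible and not past 0.05. The Tnmd to Scx ratio differed by 0.13 with overlapping groups (exact p = 0.4).

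**Figure D3:**
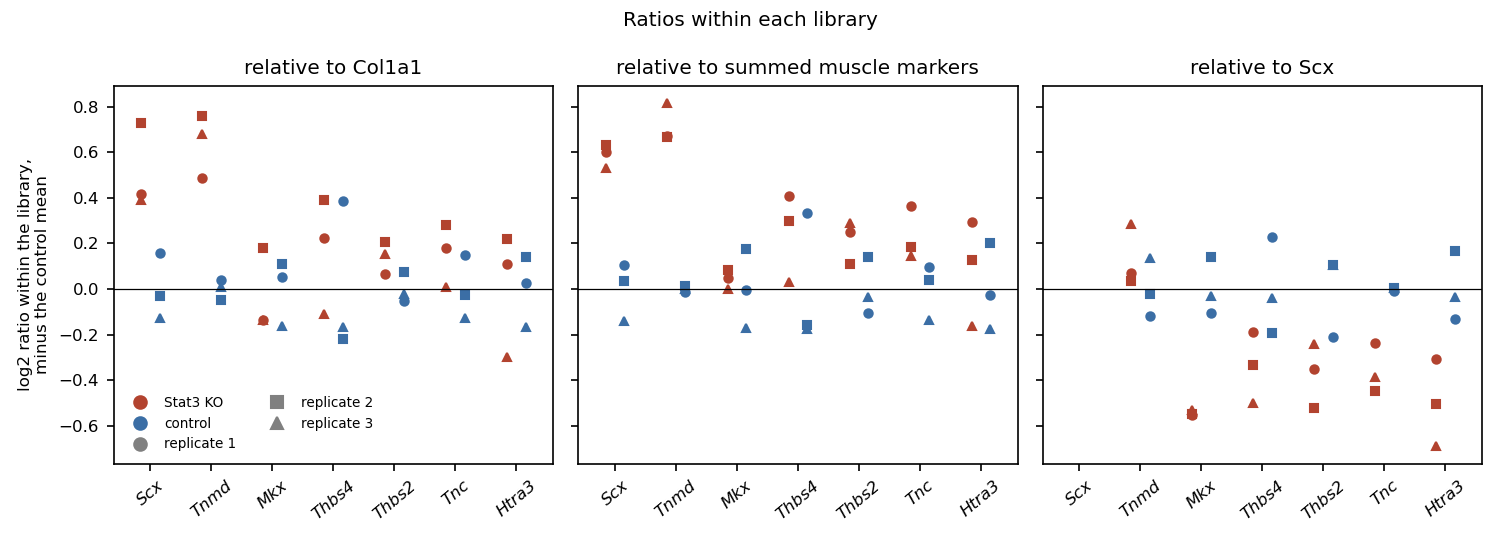
Each panel plots, for each gene on the horizontal axis, the log2 ratio within a library to Col1a1, to the summed skeletal muscle markers or to Scx, minus the control mean of that ratio. Points are the 6 libraries, Stat3 KO left of control, with a shape for each replicate number. Scx and Tnmd stand above the controls in the Col1a1 and muscle panels, by differences of the means of 0.51 to 0.72. Tnc stands above them in the muscle panel by 0.23, where the lower muscle sum in Stat3 KO itself raises the ratios. Mkx, Thbs2, Tnc and Htra3 lie below the controls in the Scx panel, where the rise of Scx itself lowers the ratios.

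Beside their closest relatives the matrix members showed mixed results. In the thrombospondin family Thbs3, a gene of developing skeletal tissue, rose to 354 ± 17.2 RPM in Stat3 KO, against 285 ± 8.97 RPM in controls (log2 fold change 0.31, limma adjusted p = 0.00580). Comp, the thrombospondin of cartilage and tendon, fell to 15.5, 21.3 and 19.1 RPM in Stat3 KO libraries, against 27.9, 28.0 and 32.0 RPM in control libraries (log2 fold change -0.64, adjusted p = 0.00144). Thbs1, an activator of latent TGF-beta, did not pass at -0.10 (adjusted p = 0.465). Of the 5 thrombospondins, 1 rose, 1 fell and 3 did not pass, where 5.71% of all amplicons were called higher and 11.0% lower. A family of 5 is too small to be set apart from these shares.

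None of the 3 tenascin genes above the expression minimum (Tnc, Tnn and Tnxb) passed with limma, edgeR or DESeq2. On the RPM values as deposited, 0 had an unadjusted limma p under 0.05. The unadjusted limma p of Tnc was 0.0357 with TMM, 0.0303 with median-of-ratios and 0.106 with quantile scaling. On recovered reads the unadjusted p of Tnc was 0.0364 by edgeR and 0.0207 by DESeq2. Tnn, a bone and periosteum tenascin, was at 41.1 ± 5.87 RPM in Stat3 KO and 45.0 ± 1.47 RPM in controls, and Tnxb, which binds collagen fibrils, was at 107 ± 6.90 RPM in Stat3 KO and 101 ± 4.16 RPM in controls (SD, n = 3 each). The nervous system gene Tnr was listed at 0 in all 3 Stat3 KO libraries and in 2 of the 3 control libraries. Among the HtrA proteases, Htra1, a close relative of Htra3, rose to 273 ± 5.91 RPM in Stat3 KO, against 230.2 ± 5.07 RPM in controls (log2 fold change 0.25, limma adjusted p = 0.0223), and this call was lost when control replicate 1, control replicate 2, Stat3 KO replicate 2 or Stat3 KO replicate 3 was left out. The mitochondrial Htra2 and the low Htra4 did not pass, at 0.08 and -0.03.

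Tnmd and its relative Lect1 went opposite ways. Lect1 encodes chondromodulin, the cartilage member of the same small family and like tenomodulin an inhibitor of vessel growth. It fell to 9.06, 8.55 and 9.20 RPM in Stat3 KO libraries, against 18.7, 16.7 and 19.8 RPM in control libraries (log2 fold change -0.96 ± 0.13, limma adjusted p = 3.65e-05), a call that held under all 17 alternatives. The Itm2 genes encode membrane proteins that share the BRICHOS domain with tenomodulin. Itm2c rose to 607 ± 7.87 RPM in Stat3 KO, against 468 ± 19.6 RPM in controls (log2 fold change 0.38, adjusted p = 7.86e-04), Itm2b rose by a log2 fold change of 0.31 (adjusted p = 0.00643), and Itm2a did not pass at 0.14 (adjusted p = 0.185), although edgeR on recovered reads called it higher.

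**Figure D4:**
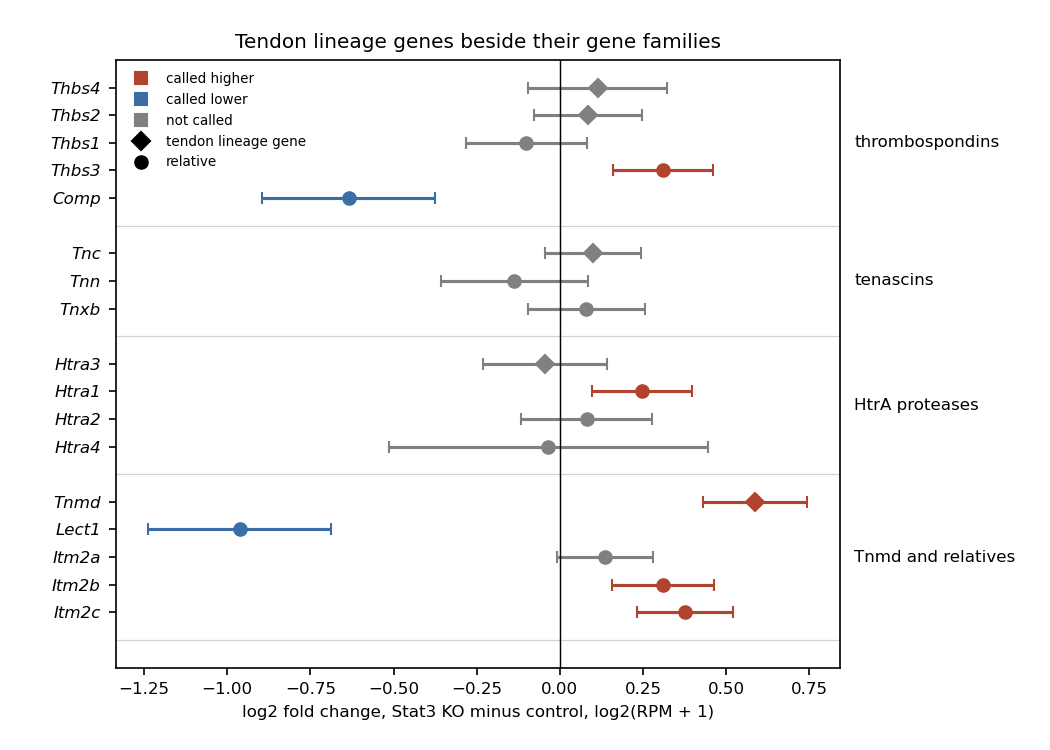
Rows are genes grouped by family, and the horizontal axis is the log2 fold change (Stat3 KO minus control, on log2(RPM + 1)) with its 95% interval from limma. Diamonds are the tendon lineage genes and circles their relatives, coloured by call. Comp at -0.64 and Lect1 at -0.96 lie far to the left of Thbs3 at 0.31 and Tnmd at 0.59.

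The E-proteins, with which Scx forms dimers, fell or did not pass. Tcf12 fell to 113 ± 8.95 RPM in Stat3 KO, against 149.8 ± 7.43 RPM in controls (log2 fold change -0.41, limma adjusted p = 0.00201). Tcf3 fell as well, at -0.42 (adjusted p = 0.0219), a call lost with quantile normalization, DESeq2 or without control replicate 1 or Stat3 KO replicate 3. Tcf4 was higher in all 3 Stat3 KO libraries but did not pass, at 0.21 (adjusted p = 0.0659). It was called higher with TMM, median-of-ratios, edgeR and DESeq2, and without control replicate 3. Tcf15, the closest paralog of Scx, was low, at 1.47 ± 0.75 RPM in Stat3 KO and 1.44 ± 0.73 RPM in controls, and did not pass.

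Beyond the 7 genes, the wider tendon programme did not move one way. Over regulators and signals, collagens and other matrix genes, and sheath and progenitor genes, 77 further genes passed the expression minimum. Of these, 6 rose, 15 fell and 56 did not pass, where 5.71% of all amplicons were called higher and 11.0% lower. Their median log2 fold change was -0.03. The split depended on the scaling, with 12 higher and 9 lower under TMM or median-of-ratios factors and 6 higher and 12 lower under quantile normalization. Of the main calls, 5 of 6 higher and 8 of 15 lower were kept under all 3 scalings. The lower count fell to 9 without control replicate 1, to 8 without control replicate 2 and to 9 without Stat3 KO replicate 2.

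Among regulators and signals, 1 of 26 genes rose and 5 fell, against 5.71% and 11.0% of all amplicons. With TMM, median-of-ratios and edgeR 3 were higher and 3 lower, DESeq2 gave 2 and 3, and quantile normalization 1 and 3. Gdf6, a BMP family ligand of joints and tendon, rose to 4.89 ± 1.27 RPM in Stat3 KO, against 2.84 ± 0.52 RPM in controls (log2 fold change 0.60, limma adjusted p = 0.0364), and the call was lost without control replicate 1, control replicate 2 or Stat3 KO replicate 2. Klf4, a zinc finger factor, fell to 44.9 ± 3.84 RPM in Stat3 KO, against 61.95 ± 4.74 RPM in controls (adjusted p = 0.00332). The ligand gene Tgfb1 fell at -0.34 (adjusted p = 0.0100, lost without Stat3 KO replicate 2) and the load-responsive coactivator Yap1 fell at -0.33 (adjusted p = 0.00735). The fall of Sox9, the cartilage factor that tendon attachment progenitors share with Scx, was lost under all 3 other scalings and without Stat3 KO replicate 1 or 2 or control replicate 1 or 2 (-0.39, adjusted p = 0.0274). All 3 scalings, and leaving out Stat3 KO replicate 2 or control replicate 2 or 3, also ended the fall of Smad2, a TGF-beta signal transducer. Yap1 and Smad2 are named outside the rule for named genes.

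Of the TGF-beta, load and FGF response genes in this list, Tgfb1, Smad2 and Yap1 fell as given above, and the following did not pass in the limma fit. Tgfb2 was at 64.3 ± 1.56 RPM in Stat3 KO and 66.1 ± 15.4 RPM in controls, Tgfb3 at 145 ± 10.4 RPM in Stat3 KO and 144 ± 2.12 RPM in controls (SD, n = 3 each). Their log2 fold changes had 95% intervals of -0.26 to 0.24 and -0.16 to 0.17. The receptor genes Tgfbr2 and Tgfbr1 had log2 fold changes of 0.22 (limma adjusted p = 0.109) and -0.22 (adjusted p = 0.154). Tgfbr2 was called higher with TMM, median-of-ratios, edgeR and DESeq2. Ctgf was at 0.29 (limma adjusted p = 0.0785) and Smad3 at -0.38 (adjusted p = 0.0529). Ctgf was called higher with TMM, median-of-ratios, edgeR and the replicate block, and without control replicate 3. Smad3 was called lower with the replicate block, and without Stat3 KO replicate 2 or control replicate 3. Egr1, the load-induced factor, was at 0.09 (adjusted p = 0.555), and the FGF response genes Etv4, Etv5 and Spry2 at 0.24, -0.03 and 0.05 did not pass. The genes of this paragraph were chosen from the list after their values were seen.

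In the matrix list, 4 of 32 genes rose and 7 fell, against 5.71% and 11.0% of all amplicons. The balance turned with the scaling, to 7 higher and 4 lower with TMM, median-of-ratios and edgeR and 7 and 3 with DESeq2, while quantile normalization gave 5 and 7. Col3a1, the collagen of young and loose connective tissue, rose to 4779 ± 402 RPM in Stat3 KO, against 3410.5 ± 223 RPM in controls (SD, n = 3 each, log2 fold change 0.49, limma adjusted p = 1.43e-04). Chad (chondroadherin) rose at 0.48 (adjusted p = 0.00163) and Eln (elastin) at 0.35 (adjusted p = 0.00251). The collagen cross-linking enzyme gene Lox fell to 541 ± 16.7 RPM in Stat3 KO, against 758 ± 28.5 RPM in controls (log2 fold change -0.48, adjusted p = 5.39e-05). After Comp and Lox the next largest fall was that of Lum (lumican) at -0.31, which was lost with TMM and median-of-ratios scaling and without Stat3 KO replicate 1 or control replicate 1. Kera (keratocan), a small proteoglycan abundant in tendon, fell at -0.30 (adjusted p = 0.0116, lost without control replicate 1 or 2). Fmod (fibromodulin), Dcn (decorin), Col1a1 and Col1a2 did not pass, at -0.13, 0.19, -0.06 and -0.14. Dcn was called higher with TMM, median-of-ratios, edgeR and DESeq2, and without control replicate 2. Kera and these 4 genes are named outside the rule for named genes and after their values were seen.

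In the sheath and progenitor list, 1 of 19 genes rose and 3 fell, against 5.71% and 11.0% of all amplicons. With TMM, median-of-ratios and edgeR 2 were higher and 2 lower, quantile normalization gave 0 and 2, and DESeq2 3 and 1. Tppp3, a marker of the tendon sheath, rose to 817 ± 20.7 RPM in Stat3 KO, against 698 ± 58.6 RPM in controls (log2 fold change 0.23, limma adjusted p = 0.0340). That call was lost with quantile normalization and without any of control replicates 2 and 3 or Stat3 KO replicates 1, 2 and 3. Pdgfra, a receptor of connective tissue progenitors, fell at -0.39 (adjusted p = 0.00647), and Ly6a and Mcam fell at -0.43 and -0.27. The falls of Ly6a and Mcam were each lost under at least 1 other scaling and without Stat3 KO replicate 1 or control replicate 2. Prg4 (lubricin) was at 7.46 ± 1.71 RPM in Stat3 KO and 7.42 ± 0.39 RPM in controls and did not pass.

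**Figure D5:**
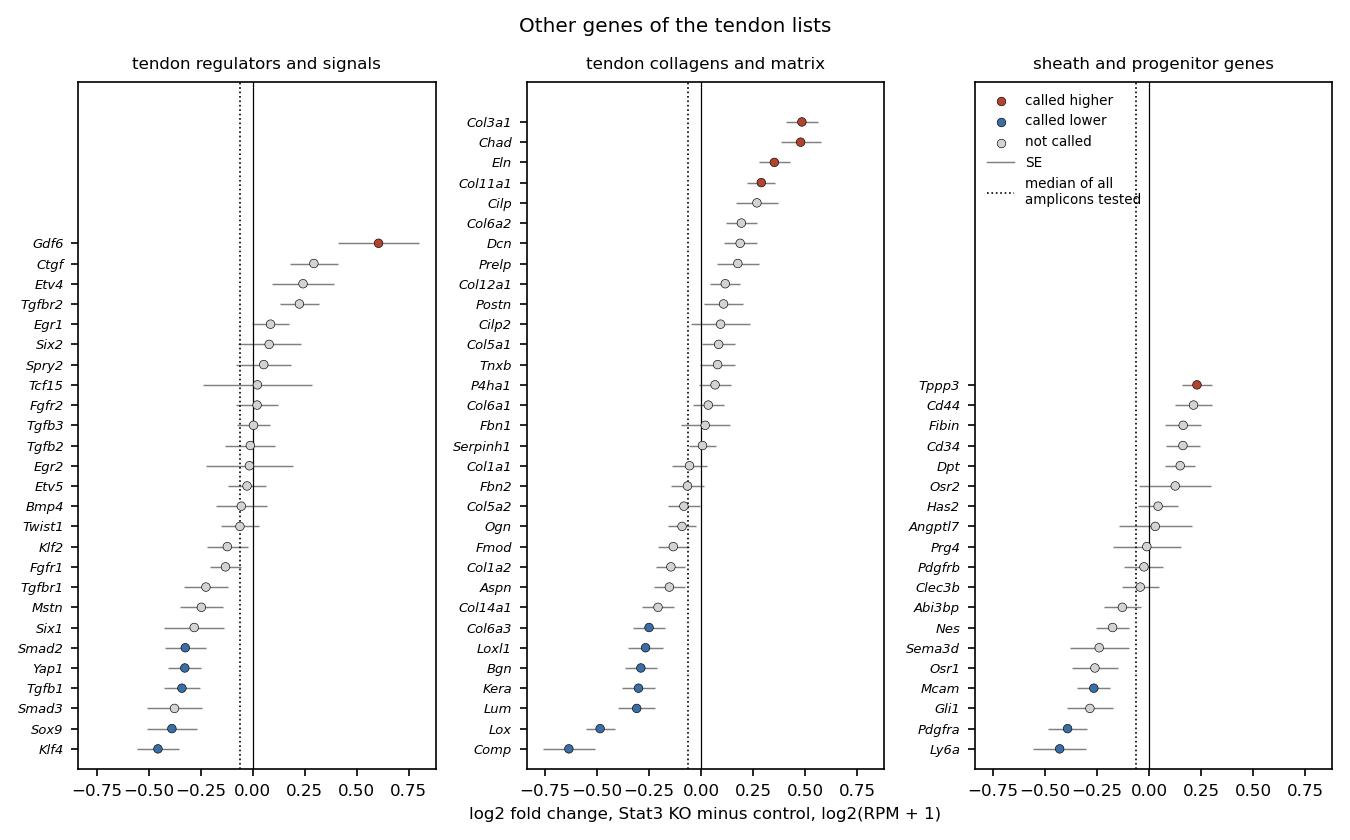
Rows are the further genes of 3 tendon lists and the horizontal axis is the log2 fold change (Stat3 KO minus control, on log2(RPM + 1)) with its SE. Colour gives the limma call, and the dotted line is the median of all amplicons tested at -0.06. Called genes lie on both sides, 6 higher and 15 lower of 77, with Gdf6 at 0.60 and Comp at -0.64 at the ends.

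Markers of other cell types also differed between groups, where 5.71% of all amplicons were called higher and 11.0% lower. Summed skeletal muscle markers were at 25311 to 27076 RPM in Stat3 KO and 27713 to 31072 RPM in controls, with 6 of 16 genes lower (Ttn at -0.56, Ryr1 at -0.51 and Actn2 at -0.43 by the most) and 0 higher. Summed osteoblast markers were at 31923 to 36798 RPM in Stat3 KO and 37349.9 to 40582 RPM in controls, with 9 of 10 lower and 0 higher. Ibsp, a bone matrix sialoprotein gene, fell to 2097 ± 66.9 RPM in Stat3 KO, against 4328 ± 319 RPM in controls (SD, n = 3 each, limma adjusted p = 4.00e-10), and Pth1r and Smpd3 fell at -1.22 and -0.96. Most of this sum was Col1a1, which was not called, at 27669 ± 2574 RPM in Stat3 KO and 28711 ± 2067 RPM in controls. Chondrocyte markers summed to 535 to 585 RPM in Stat3 KO and 644 to 652 RPM in controls, with 4 of 11 tested genes lower (Matn1 at -1.28, Hapln1 at -0.82 and Matn3 at -0.45 by the most) and 0 higher. Connective fibroblast markers summed to 10862 to 11915 RPM in Stat3 KO and 8754 to 9661 RPM in controls, with 4 of 13 tested genes higher (Col3a1, Col15a1, Mfap5 and Fap) and 4 lower (Pdgfra, Tcf7l2, Lum and Thy1), and with Tcf21 at 0 in every library. Col3a1 and Dlk1 made up most of this sum, and Dlk1 was at 5212 ± 209 RPM in Stat3 KO and 4600.2 ± 385 RPM in controls (SD, n = 3 each), not called by limma but called higher with TMM, median-of-ratios, edgeR and DESeq2, and without control replicate 3. Haematopoietic markers summed to 494 to 513 RPM in Stat3 KO and 397 to 430.0 RPM in controls. Of the 9 tested, 3 were higher (Lyz2, Cd68 and Alas2) and 4 lower (Csf1r, Ngp, S100a8 and S100a9), Ngp by the most at -1.54. Of these 4 lower calls, 3 held under all 17 alternatives. Nerve markers summed to 68.3 to 83.7 RPM in Stat3 KO and 79.8 to 97.0 RPM in controls, with 0 of 8 called by limma, edgeR or DESeq2 and 1 at an unadjusted p under 0.05. Endothelial and mural markers summed to 3669 to 3898 RPM in Stat3 KO and 3786 to 4007 RPM in controls, with 1 of 8 lower (Cdh5) and 0 higher. TMM and edgeR gave 1 higher and 1 lower, median-of-ratios and DESeq2 1 and 0, and quantile normalization 0 and 1. Pecam1, not called at 0.21 (limma adjusted p = 0.0657), was called higher with TMM, median-of-ratios, edgeR and DESeq2, and without Stat3 KO replicate 3. With TMM and median-of-ratios scaling, 1 muscle marker was higher and 4 lower, and 5 fibroblast markers were higher and 2 lower. Quantile normalization gave 0 and 8 for muscle and 4 and 3 for fibroblast markers. Chondrocyte markers were lower for 3 with TMM and 2 with median-of-ratios or quantile scaling, and osteoblast markers for 8, 8 and 9 under TMM, median-of-ratios and quantile scaling. The ratios of Scx and Tnmd to Col1a1 and to the muscle sum, given above, do not measure the share of tendon cells. Those to the muscle sum also carry its lower level in Stat3 KO. Some called markers named here lost their call when 1 library was left out, in at least 1 of the 6 ways to do so. These were Matn3, Fap, Col15a1, Tcf7l2, Lum, Thy1, Alas2 and Cdh5, with Csf1r, S100a8 and S100a9 left aside. The part of these shifts in the values of the tendon lineage genes was not tested.

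By pattern over the 6 libraries, the amplicons most like Scx were Trim26, Psmb10 and Gas2 among 9017 others with a mean of at least 10 RPM. Likeness was the root mean square difference of log2(RPM + 1) values after each gene was centred on its own mean, and it was 0.03, 0.04 and 0.04 for these genes. Trim26 had 27.9, 30.6 and 29.1 RPM in Stat3 KO libraries and 21.4, 21.8 and 20.7 RPM in control libraries. The amplicons most like Tnmd were Myl2, Snrpb and Psmb4, each at 0.04. Myl2 had 195, 197 and 216 RPM in Stat3 KO libraries and 130.2, 138 and 147 RPM in control libraries. Scx and Tnmd differed from each other by 0.13 on this measure, which placed Tnmd 428th in likeness to Scx and Scx 118th in likeness to Tnmd.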

How the data were processed

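RNA of the humerus shaft was read with the Ion AmpliSeq mouse transcriptome panel, per the labels' protocols, in 3 Stat3 KO and 3 control libraries, grouped by title. The authors deposited RPM values in 6 columns. Aligner, counter and build: not given in the sources used here. In the deposited RPM values, 100% of those above 0 were whole reads within 0.1 read, which gave the depths. Counting errors treat reads as independent, which PCR copies are not. A total of 27 symbols turned into dates were restored from amplicon names.

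RPM + 1 was log2-transformed for 12846 amplicons averaging 1 RPM or more and fitted with limma 3.58.1 (R 4.3.3, eBayes with trend, Benjamini-Hochberg over all tested). The fit was tested on simulated data. Alternatives were pseudocounts of 0.1 and 10 RPM, a minimum mean of 5 RPM or none, TMM, median-of-ratios and quantile scaling, no trend, a replicate block, edgeR 4.0.16 and DESeq2 1.42.0 on recovered reads, and leaving out each library. The members and lists were chosen with earlier results of these data known. Named genes were the 7 members, Stat3, up to 3 called genes per direction and list, the thrombospondin, tenascin and HtrA families, and the 3 genes most like Scx and Tnmd. Any other gene named was chosen after its values were seen. Bri3, listed by mistake with the BRICHOS genes, is not described. Figures were drawn with matplotlib 3.10.9.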

Additional observations from a re-analysis of the deposited data

How the results depend on the processing

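The calls of Scx and Tnmd as higher, and the count of 2 higher and 0 lower among the 7 genes, were the same under all 17 alternatives, and no alternative called Mkx, Thbs4, Thbs2, Tnc or Htra3. Leaving out each library gave 0.43 to 0.48 for Scx and 0.52 to 0.64 for Tnmd. The value of Htra3 changed sign to 0.012 with TMM scaling, 0.018 with median-of-ratios scaling, 0.015 with edgeR and 0.020 with DESeq2, and ran from -0.12 to 0.058 when each library was left out; the cause was not tested. Over all amplicons, 733 were called higher and 1409 lower. The lower count was 869 with no filter on low values, 928 with TMM, 881 with median-of-ratios, 877 with quantile normalization, 922 with edgeR and 775 with DESeq2, where the higher counts were 523, 1044, 1079, 979, 1052 and 998. With no trend in the variance 361 were higher and 634 lower. Leaving out a library gave 442 to 705 higher and 729 to 1324 lower, in fits with fewer samples. Among the 77 further tendon genes (6 higher, 15 lower), TMM, median-of-ratios and edgeR each gave 12 higher and 9 lower, DESeq2 12 and 7, no trend 2 and 4, and no filter 4 and 9. Leaving out a library gave 5 to 7 higher and 8 to 16 lower. The groups share replicate numbers, and the labels do not say whether these pair the samples. The deviations of same-numbered libraries correlated at 0.01, -0.02 and 0.11. With 3 libraries a group, such correlations cannot decide whether the samples are paired. With the replicate block 836 amplicons were higher and 1626 lower, 9 and 16 of the further tendon genes, and Scx and Tnmd were called at 0.45 and 0.59. Not every library correlated best with its own number. With 3 libraries a group, the data do not exclude differences inside the intervals given for the 5 uncalled genes.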

Other observations

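The homeobox relatives of Mkx were read at low levels in these samples. There were 9 in the data, of which 5 passed the expression minimum, and none was called by limma, edgeR or DESeq2, while 4 had an unadjusted limma p under 0.05, all lower in Stat3 KO. Irx5, a limb patterning factor, was at 12.1 ± 0.42 RPM in Stat3 KO and 15.2 ± 2.34 RPM in controls (SD, n = 3 each), without overlap of the groups (log2 fold change -0.30, limma adjusted p = 0.140). Irx4 was listed at 0 in every library.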
